A study of Mus musculus with 14 samples.

Results

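The genes followed here code for secreted proteins of cartilage matrix: *Chad*, *Clec3a*, *Cilp*, *Cilp2*, *Cytl1*, *Comp*, *Matn1*, *Matn3*, *Matn4* and *Prg4*. They were picked by name, 10 of the 55487 genes in the count table, and 9 of them passed the filter on low counts that left 16915 genes for testing. *Matn1* did not pass. The choice was made with results of the comparison of STZ-HFD with Con+Veh in view, where *Chad* and *Clec3a* were known as large decreases. The study's discussion also names *Cilp2* and *Cytl1* among the genes decreased in STZ-HFD. The members' values in that comparison are therefore given as a description without a test.

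Bulk RNA-sequencing (RNA-seq) was done on 14 libraries from the tail intervertebral discs (IVDs) of male mice, each library holding 5 discs pooled from 1 mouse. The db/db group (n = 3) was homozygous for the Lepr db mutation of the leptin receptor and was compared with db/+ littermates (n = 3), which carry 1 mutant allele; these mice were 3 months old and received no treatment. The STZ-HFD group (n = 4) was of the strain C57BL/6J per the labels, was put on a high-fat diet at 12 weeks of age for a lead-in of 4 to 6 weeks, was then injected with 100 mg/kg streptozocin (STZ), a toxin of insulin-producing cells, and stayed on the diet for 12 more weeks. The fat content of that diet is given as 80% of calories in the labels and as 60% in the study's methods. Con+Veh mice (n = 4), labelled wild-type C57BL/6J, were kept on chow and received citrate buffer alone. The db and C57BL/6J cohorts differed in age, genotype background and handling, so a difference between db and C57BL/6J mice cannot be told apart from these, and each diabetic group was compared with its own controls. All 14 libraries carry the same batch label. Library names begin differently in Con+Veh and in STZ-HFD, and what the beginnings stand for is not given in the sources used here. A set of mice or of preparation behind them could not be told apart from the group.

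Cartilage and the disc share a matrix of collagen fibrils and aggrecan, and the proteins followed here sit between fibrils, proteoglycans and cells. Chondroadherin, the product of *Chad*, is a leucine-rich repeat protein that binds collagen and lets chondrocytes attach through integrins. Comp (cartilage oligomeric matrix protein, a thrombospondin) and the matrilins (*Matn1*, *Matn3*, *Matn4*) are oligomeric adaptors that link collagens, proteoglycans and one another. *Cilp* and *Cilp2* code for cartilage intermediate layer proteins, of which Cilp is known in disc matrix as a binder of the growth factor TGF-beta. *Prg4* codes for lubricin, the lubricant of joint surfaces, *Clec3a* for a C-type lectin-like protein of cartilage, and *Cytl1* for a small secreted cytokine-like protein of chondrocytes.

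Total counts ran from 16076908 to 58943169 per library, and nuclear and mitochondrial ribosomal RNA took 28.1% to 60.2% of them. At these depths 3 counts correspond to 0.0509 to 0.187 CPM, a count divided by its library's total and put on a common scale; between libraries, the CPM levels below were also scaled by TMM factors. Con+Veh replicate 1 and STZ-HFD replicate 1 stood apart, with quality weights of 0.275 and 0.379 in the fit against a median of 1.11 over all libraries, while Con+Veh replicates 3 and 4 had the highest weights of the STZ cohort (3.05 and 1.81). Markers of chondrocytes were present in every library, and so were markers of skeletal muscle, whose summed level over 8 genes ran from 2132 to 16669 CPM. Of the 7 notochord and nucleus pulposus markers, *Shh* and *Noto* had medians of at most 0.107 CPM in every group. *Shh* was at 0 in each db/+ library and *Noto* in each db/db library. The 7 summed to 114 to 640 CPM in db/+, 168 to 296 in db/db, 169 to 1296 in Con+Veh and 226 to 750 in STZ-HFD.

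The windows upstream of the annotated gene start were read for the members from RefSeq (build GRCm38.p6), where 7 of the 10 were matched; *Clec3a*, *Comp* and *Prg4* were not. *Chad* and *Cytl1* are shown as the members after which the set is named, and *Cilp* as the other matched member with a TATA motif. Each is given 5′ to 3′ on the plus strand, which is the strand of all 3 genes, as the 250 bases before the start, at chr11:94564797-94565046, chr5:37735269-37735518 and chr9:65264930-65265179. Capitals mark TATAA, which is part of the longer motif TATAAA, and GGGCGG (the GC box of Sp factors) or its reverse complement CCGCCC.
Chad: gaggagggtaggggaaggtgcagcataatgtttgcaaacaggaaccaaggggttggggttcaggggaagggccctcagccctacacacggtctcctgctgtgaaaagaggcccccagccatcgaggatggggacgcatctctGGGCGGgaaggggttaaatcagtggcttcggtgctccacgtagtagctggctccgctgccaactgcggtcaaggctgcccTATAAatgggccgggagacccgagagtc
Cytl1: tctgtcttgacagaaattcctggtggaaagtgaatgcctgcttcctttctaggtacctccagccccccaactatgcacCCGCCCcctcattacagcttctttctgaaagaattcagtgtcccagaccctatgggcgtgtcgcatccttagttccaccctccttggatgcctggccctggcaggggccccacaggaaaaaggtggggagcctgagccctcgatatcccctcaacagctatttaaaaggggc
Cilp: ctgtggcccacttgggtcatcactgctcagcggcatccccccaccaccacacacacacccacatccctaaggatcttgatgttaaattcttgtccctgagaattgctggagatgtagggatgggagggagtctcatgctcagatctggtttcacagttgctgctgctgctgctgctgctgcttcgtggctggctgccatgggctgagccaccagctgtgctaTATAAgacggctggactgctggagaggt
TATAA lay 28 bases before the start in both *Chad* and *Cilp* and was found in no other of the 7 matched members. Searched on both strands, it was present in 22.8% of 32851 windows of the same length, and TATAAA, which of these 7 only *Chad* held, in 12.4%. GGGCGG was found in *Chad*, *Cilp2*, *Cytl1*, *Matn1*, *Matn3* and *Matn4*, against 32.7% of all windows. The motifs ACAAAG and ACAATG, letters that Sox proteins bind, were in 16.5% and 10.7% of windows and in none of the 7 members. These matches describe letters in the windows and say nothing of binding.

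*Chad* was the most abundant member by far. It was first in order per length in each of the 4 groups, without overlap with the next member. In RPKM, which is CPM per kilobase of exon, its level was 16758 ± 3284 (SD, n = 3) in db/+, 11463 ± 5911 (n = 3) in db/db, 4142 ± 3045 (n = 4) in Con+Veh and 281 ± 99.1 (n = 4) in STZ-HFD. By count it ranked first or second among protein-coding genes in every db/+ and db/db library, 3 to 16 in Con+Veh and 58 to 148 in STZ-HFD. It took between 4.14% and 6.57% of all counts outside ribosomal RNA in db/+, 2.30% to 5.53% in db/db, 0.446% to 1.90% in Con+Veh and 0.0491% to 0.121% in STZ-HFD.

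Below *Chad* the order per length was less sharp. In db/+ the levels of *Cytl1* (342 ± 159 RPKM), *Clec3a* (320 ± 100.8) and *Prg4* (305 ± 60.1) overlapped, and the lowest of them came down to the range of *Comp* (188 ± 47.0), which only *Prg4* lay above in every library. *Cilp2* (35.0 ± 6.55) and *Cilp* (29.4 ± 6.39) also overlapped each other and lay above *Matn3* (6.25 ± 3.07). *Matn4* (0.54 ± 0.28) and *Matn1* (0.16 ± 0.07) were the lowest. In db/db, Con+Veh and STZ-HFD *Prg4* was second, with overlap of the next member each time, and the matrilins were again the last 3 of the 10. The order between the overlapping neighbours is not resolved by these libraries.

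Both control groups, from separate cohorts, held very different amounts of some members and like amounts of others. *Prg4* stood at 1308 ± 257 CPM in db/+ and 1361 ± 691 in Con+Veh, and *Cilp* at 125 ± 27.1 and 104 ± 36.8. *Chad* stood at 28154 ± 5518 CPM in db/+ and 6958 ± 5115 in Con+Veh, *Cilp2* at 151 ± 28.3 and 40.2 ± 17.4, and *Matn3* at 18.8 ± 9.25 and 2.16 ± 0.85. Chondrocyte markers (9 genes, among them *Acan*, *Col2a1* and *Sox9*) moved the same way, with summed levels of 13365 to 23399 CPM in db/+ and 1324 to 3095 in Con+Veh.

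The first comparison asked whether discs of leptin receptor-deficient mice differed from those of heterozygous littermates. No member passed the test, which was limma's moderated test with Benjamini-Hochberg adjustment over all 16915 genes, a threshold of 0.05 and a log2 fold change of at least 1 in size. Under that rule 1.66% of all genes tested were called, and 0 of 9 members. At an unadjusted p under 0.05 there was 1 member (all genes: 21.1%) by limma. By edgeR's quasi-likelihood test and by DESeq2 there were 0, with 1891 and 2138 of the 16915 genes tested. Both also called 0 members, where edgeR called 0 of all genes and DESeq2 called 160 higher and 52 lower. The 9 members' median log2 fold change was -0.62, against -0.04 over all genes, with 7 below and 2 above 0.

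*Chad* was at 23716, 26413 and 34332 CPM in db/+ and at 11439, 15903 and 30430 CPM in db/db. The first and second db/db mice were below every db/+ mouse, and the third lay inside the db/+ range. The fitted log2 difference was -0.63 (SE 0.57, 95% interval -1.82 to 0.57, adjusted p = 0.559).

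*Cilp2* had the lowest fitted value. Its levels were 179, 151 and 123 CPM in db/+ and 75.0, 31.3 and 166.8 CPM in db/db, so again the third db/db mouse lay inside the range of the controls. The log2 difference was -1.05 (SE 0.44, 95% interval -1.97 to -0.12, unadjusted p = 0.0284, adjusted p = 0.183). Its relative *Cilp* was at 145, 136 and 94.0 CPM in db/+ and at 144, 61.4 and 133 CPM in db/db, with a log2 difference of -0.25 (SE 0.34, adjusted p = 0.706).

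Among the adaptors, *Comp* ran from 401 to 671 CPM in db/+ and from 189 to 627 in db/db (log2 difference -0.74, SE 0.42, adjusted p = 0.322). *Matn3* ran from 9.37 to 27.9 and from 10.4 to 16.8 CPM (-0.42, SE 0.34, adjusted p = 0.495). *Matn4*, at 1.15 to 3.96 and 1.40 to 4.15 CPM, gave 0.14 (SE 0.47, adjusted p = 0.895). The groups overlapped for each of the 3.

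*Clec3a* was at 183, 251 and 133 CPM in db/+ and at 125, 61.5 and 158 CPM in db/db, with a log2 difference of -0.82 (SE 0.47, 95% interval -1.82 to 0.18, adjusted p = 0.330). *Cytl1* was at 361, 529 and 193 CPM in db/+ and at 227, 176 and 294 CPM in db/db (log2 difference -0.62, SE 0.51, adjusted p = 0.509). *Prg4*, at 1011 to 1471 and 1012 to 1754 CPM, gave 0.19 (SE 0.41, 95% interval -0.67 to 1.04, adjusted p = 0.831). Of the 9 members tested, 0 were lower without overlap of the groups, where 11.7% of all genes were. The 95% intervals of 6 of the 9 members reached below a log2 difference of -1, and for 5 of these, all but *Cilp2*, the interval also held 0, so that a decrease of that size could not be told from none with 3 mice a group.

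The second comparison set discs of STZ-HFD mice against those of Con+Veh mice. All 9 members tested were lower in STZ-HFD, with a median log2 fold change of -2.13 against -0.04 over all genes. Counted by the same rule as above, 7 of 9 members lay past the thresholds on the lower side, where 1.31% of all genes did (2.61% in either direction), and 4 of 9 were lower without overlap of the groups, where 2.77% of all genes were. Since this contrast was in view when the genes were chosen, nothing is read from these counts.

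*Chad* was at 3290, 2170, 9404 and 12969 CPM in the 4 Con+Veh mice and at 349, 526, 331 and 685 CPM in the 4 STZ-HFD mice. The groups did not overlap, and the highest STZ-HFD mouse was still well below the lowest control. The fitted log2 difference was -4.26 (SE 0.36). That SE does not allow for the choice of *Chad* with this decrease known. Con+Veh replicates 3 and 4, which had the highest weights, were also the 2 controls with the most *Chad*; without quality weights the difference was -3.67.

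*Clec3a* was at 32.9, 37.8, 88.9 and 180 CPM in Con+Veh and at 13.9, 17.8, 8.29 and 15.1 CPM in STZ-HFD. These groups did not overlap either, and the log2 difference was -3.02 (SE 0.41). *Cytl1* was at 149, 48.8, 245 and 416 CPM in Con+Veh and at 21.7, 28.3, 26.7 and 50.0 CPM in STZ-HFD (log2 difference -2.92, SE 0.39). For *Cytl1* the second control mouse lay below the fourth STZ-HFD mouse, so the groups overlapped by that pair.

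*Prg4* was at 1352, 454, 1512 and 2127 CPM in Con+Veh and at 239, 433, 210 and 218 CPM in STZ-HFD, a log2 difference of -2.67 (SE 0.30). The groups were apart by the narrow gap between the second mouse of each. *Cilp2* was at 31.8, 19.9, 52.4 and 56.8 CPM in Con+Veh and at 9.91, 16.3, 10.6 and 9.87 CPM in STZ-HFD, without overlap (-2.13, SE 0.39). *Cilp* was at 101.3, 53.4, 125 and 136 CPM in Con+Veh and at 37.4, 71.1, 42.5 and 38.2 CPM in STZ-HFD, with overlap (-1.44, SE 0.27).

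Among the adaptors, *Comp* was at 225, 129, 323 and 388 CPM in Con+Veh and at 57.5, 183, 124 and 105 CPM in STZ-HFD, with overlap (log2 difference -1.45, SE 0.31). The matrilins were near the limit of these libraries. *Matn3* had 36 to 92 counts in Con+Veh and 15 to 54 in STZ-HFD (-1.06, SE 0.69), and *Matn4* had 29 to 76 and 9 to 73 (-1.75, SE 0.83). The 73 counts of *Matn4* were in STZ-HFD replicate 1. They ranked 12018 among protein-coding genes there, against 11922 for 37 counts in STZ-HFD replicate 2.

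**Figure D1:**
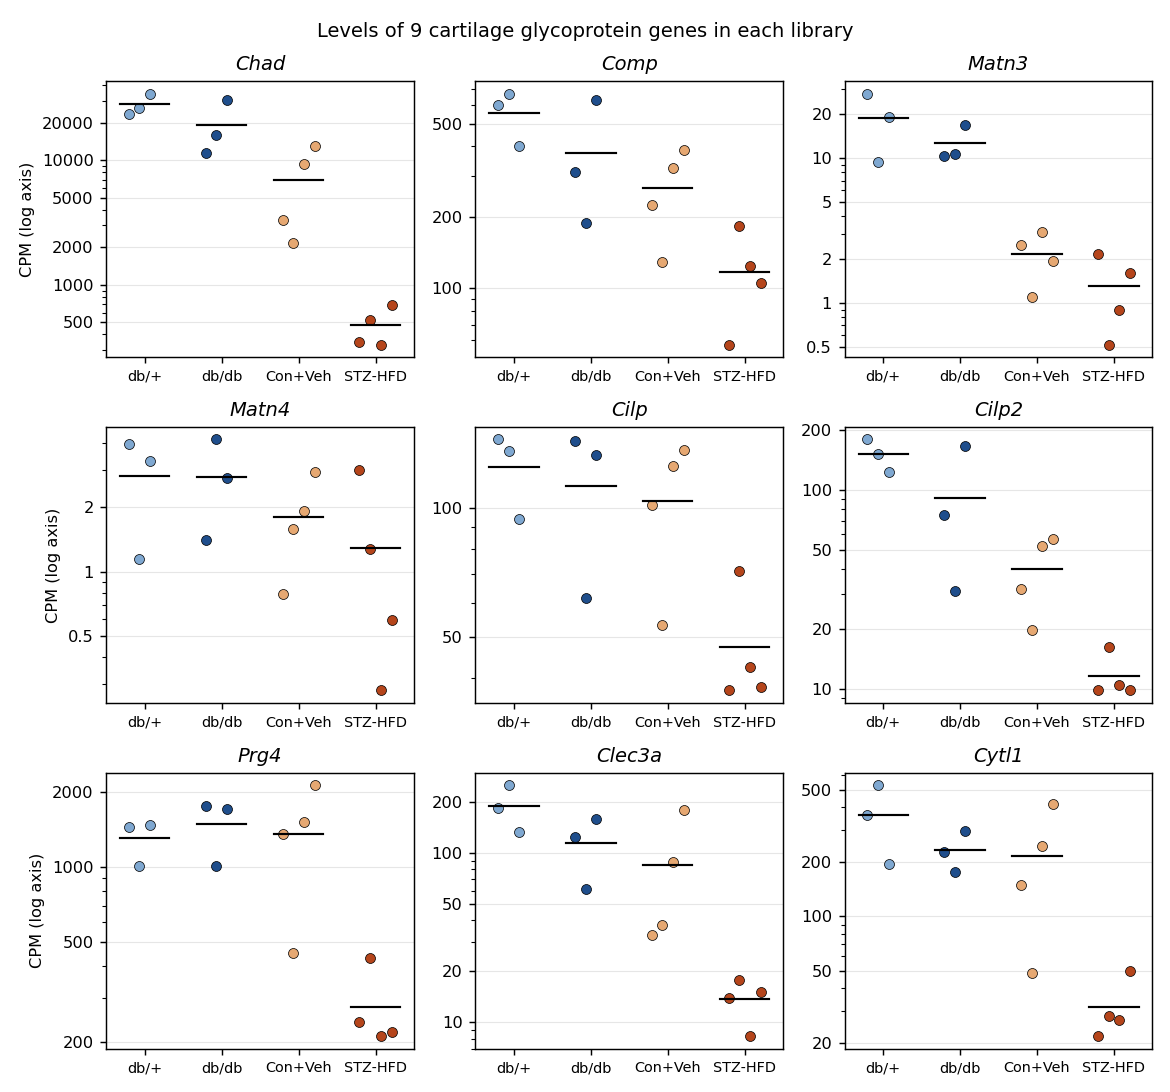
Level of each of the 9 tested members in every library, in CPM on a log axis that differs between panels; each point is 1 mouse and the line is the group mean. *Chad* lies between 331 and 685 CPM in STZ-HFD and at 2170 CPM or more in each of the other groups, while db/db and db/+ overlap for every member.

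*Matn1* was hardly detected. It had 10 to 28 counts in db/+, 4 to 20 in db/db and 0 to 2 in Con+Veh. In STZ-HFD 3 libraries had 0 counts, which allows up to 0.0645 to 0.0765 CPM before scaling between libraries, and replicate 1, the shallowest library, had 24. By count *Matn1* ranked 16551 among protein-coding genes in replicate 1, and 16401 to 17202 in the 3 libraries with 0 counts. No fold change is given for *Matn1*.

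**Figure D2:**
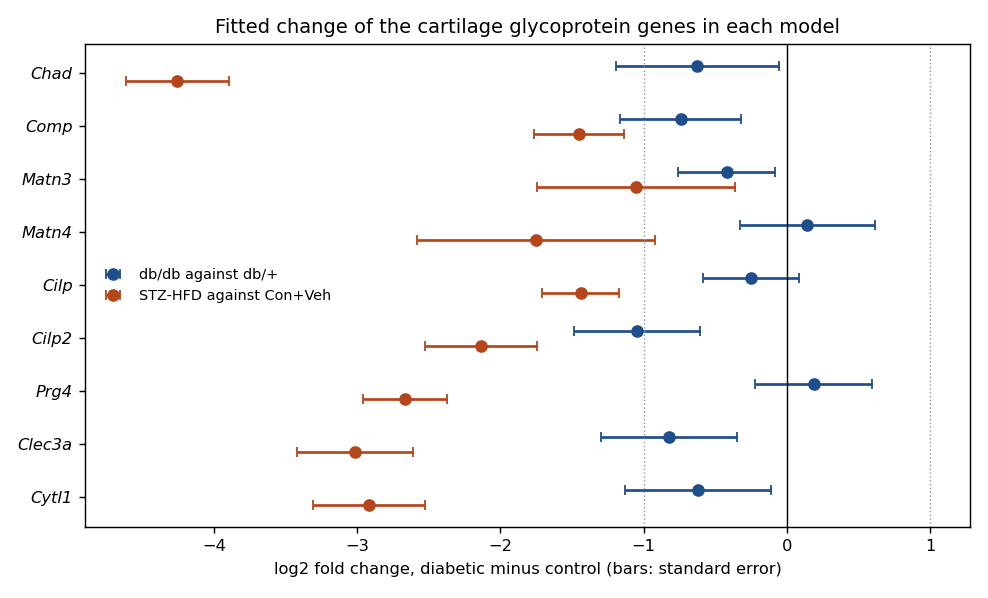
Fitted log2 fold change of each tested member (points, diabetic minus control) with its standard error (bars) in db/db against db/+ and in STZ-HFD against Con+Veh; dotted lines mark a log2 fold change of 1 in size. The STZ-HFD values run from -4.26 (*Chad*) to -1.06 (*Matn3*) and the db/db values from -1.05 (*Cilp2*) to 0.19 (*Prg4*).

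The fitted difference between the models, the STZ-HFD change minus the db/db change, was -3.63 (SE 0.67) for *Chad*, -2.85 (SE 0.50) for *Prg4*, -2.30 (SE 0.64) for *Cytl1* and -2.19 (SE 0.62) for *Clec3a*. It was below 0 for all 9 members, and closest to 0 for *Matn3* (-0.63, SE 0.77) and *Comp* (-0.71, SE 0.53). These values hold the STZ-HFD contrast and are given without a test; 1.77% of all genes were called in this difference.

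The count of 7 in STZ-HFD was not the same under other settings. It was 3 without quality weights, and it fell to 4 when Con+Veh replicate 3, Con+Veh replicate 4, STZ-HFD replicate 3 or STZ-HFD replicate 4 was left out, *Cilp*, *Cilp2* and *Comp* being the genes lost each time, and it stayed at 7 without Con+Veh replicate 1 and STZ-HFD replicate 1 together. By edgeR it was 4 (all genes: 0.136%) and by DESeq2 6 (0.91%). Over all genes, calls on the lower side were 221 with all libraries and weights, and 16 without quality weights. They were 14 without Con+Veh replicate 3, 14 without Con+Veh replicate 4, 15 without STZ-HFD replicate 3 and 100 without STZ-HFD replicate 4. Without Con+Veh replicate 1 and STZ-HFD replicate 1 together they were 270.

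The 9 chondrocyte markers summed to 1324 to 3095 CPM in Con+Veh and 549 to 1269 in STZ-HFD, and 13365 to 23399 in db/+ against 5309 to 13548 in db/db, where the ranges overlapped. In bulk discs, fewer cells of a type and less RNA per cell cannot be told apart. In STZ-HFD 4 of the 9 markers were called lower, namely *Col2a1* (type II collagen), *Hapln1* (link protein), *Acan* (aggrecan) and *Sox9* (the transcription factor of chondrocytes), where 1.31% of all genes were, and none was called higher. The other 5 had fitted differences from -1.34 (*Ucma*) to -0.09 (*Col9a1*, whose mean CPM was 3.72 in Con+Veh and 4.48 in STZ-HFD). In db/db 0 of 9 were called by limma, with 3 at an unadjusted p under 0.05 (all genes: 21.1%). There 6 of the 9 had fitted differences below 0, down to -1.17 for *Col11a2*, and *Hapln1* (0.35), *Col9a1* (0.82) and *Ucma* (0.54) had values above 0. The sums are mostly *Acan* and *Col2a1*. Skeletal muscle markers went the other way in STZ-HFD (5916 to 7227 CPM in Con+Veh, 6876 to 16669 in STZ-HFD, 3 of 8 called higher), and so did adipocyte markers (420 to 918 and 933 to 1062 CPM, 1 of 7 called higher), where 1.3% of all genes were called higher. In db/db 0 of the 8 muscle markers and 3 of the 7 adipocyte markers were called higher (all genes: 1.23%). All 8 muscle markers had fitted differences below 0 in db/db, 0 called lower and 5 at an unadjusted p under 0.05 by limma (all genes: 21.1%). Their sums were 2132 to 3779 CPM in db/db and 3000 to 6059 in db/+. With the score of the chondrocyte markers as a covariate the STZ-HFD difference of *Chad* was -2.51 and the members' median -1.35. The marker lists were chosen with earlier results of these data known, so no support is drawn from their STZ-HFD counts of calls.

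Set against the chondrocyte marker score of the same library (the mean log2 CPM of the 9 genes), *Chad* was 6.42 ± 0.37 log2 units above it in db/+, 6.17 ± 0.36 in db/db, 7.03 ± 0.51 in Con+Veh and 4.28 ± 0.34 in STZ-HFD. Every STZ-HFD library lay below every other library on this scale. *Chad* was chosen with its decrease in STZ-HFD known, so this place is a description, and what lies behind it was not tested. *Matn3* lay below the markers by like amounts in the 4 groups, at -4.24 ± 0.50, -4.31 ± 0.20, -4.31 ± 0.87 and -4.27 ± 0.77 log2 units. *Prg4* lay 1.99 ± 0.04 log2 units above the markers in db/+, 2.56 ± 0.62 in db/db, 4.83 ± 0.74 in Con+Veh and 3.49 ± 0.63 in STZ-HFD.

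**Figure D3:**
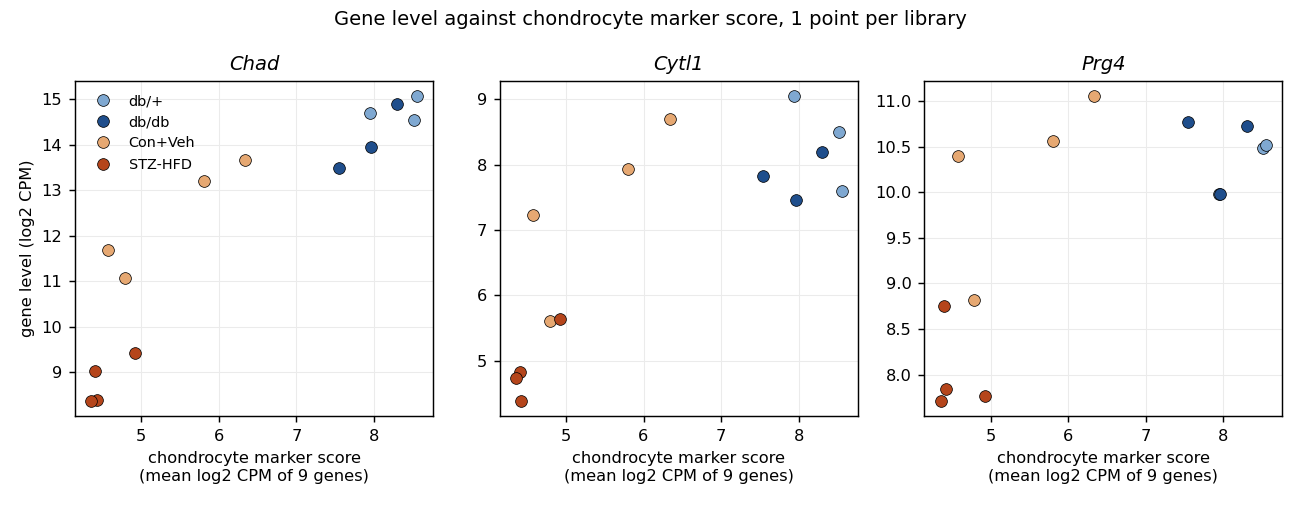
Level of *Chad*, *Cytl1* and *Prg4* (log2 CPM) against the chondrocyte marker score (mean log2 CPM of 9 genes), 1 point per library, coloured by group. The 4 STZ-HFD libraries lie lowest for *Chad*, below Con+Veh libraries of like marker score. *Chad* was chosen with this decrease known.

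Over the 14 libraries the genes with the pattern most like that of *Chad*, by Pearson's r of log2 CPM over all genes tested, were *Abi3bp* (r = 0.98), *Stk32b* (0.98), *Scara3* (0.98), *Colgalt2* (0.98) and *Ptgis* (0.97). Since the libraries fall into 2 cohorts, r was also taken within each: *Abi3bp* had 0.88 over the 6 db libraries and 0.99 over the 8 others, and *Colgalt2* had 0.51 and 0.97. For *Cytl1* they were *Jpt2* (0.96), *Vcan* (0.96, which codes for versican), the member *Clec3a* (0.95), *Slc1a4* (0.95) and *Ptgis* (0.94). *Clec3a* and *Cytl1* had r = 0.88 in the db cohort and 0.92 in the other. Among the 36 pairs of tested members the median r was 0.41 over the db libraries, with values from -0.55 to 0.97, and 0.87 over the STZ cohort (0.18 to 0.98). Libraries share depth and tissue make-up in these correlations, which are given as descriptions.

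Transcript estimates by Salmon showed what the gene counts held. *Chad*, *Clec3a*, *Cilp2*, *Matn1* and *Matn3* have 1 annotated transcript each. *Cytl1* has a coding transcript and a retained-intron transcript, and the latter made up 5.06% to 12.9% of the gene's estimate in db/+, 12.5% to 21.3% in db/db, 39.5% to 85.2% in Con+Veh and 35.8% to 82.7% in STZ-HFD. Every library of the STZ cohort was above every db library, whereas Con+Veh and STZ-HFD overlapped. The highest share was in Con+Veh replicate 1, 1494 of 1753 estimated counts (95% Wilson interval 83.5% to 86.8%, counting error only). The share of retained-intron reads in STZ-HFD rested on gene estimates of 158 to 553 counts.

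For *Cilp* the cohorts overlapped. Its transcript marked for nonsense-mediated decay had an estimate of 0 in all 6 db libraries, which at 1559 to 3257 counts for the gene allows up to 0.0921% to 0.192%. In the STZ cohort it was at 0 in 2 Con+Veh libraries, at 9.08% and 14.4% in the other two, and at 6.56%, 19.8%, 26.3% and 15.3% in STZ-HFD. *Prg4* was mainly 1 coding transcript in each group, with a share of 65.6% to 85.6%. Over the members tested, the gene counts exceeded the summed transcript estimates, by 2.52 to 2.76 times for *Chad*, 3.77 to 4.62 times for *Prg4* and 4.76 to 9.21 times for *Clec3a*. For *Cilp2* the ratio was 2.69 to 3.34 in Con+Veh and 3.49 to 5.74 in STZ-HFD, and for *Matn4*, where estimates went down to 0, it reached 37. Levels per gene therefore depend on which count is used.

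**Figure D4:**
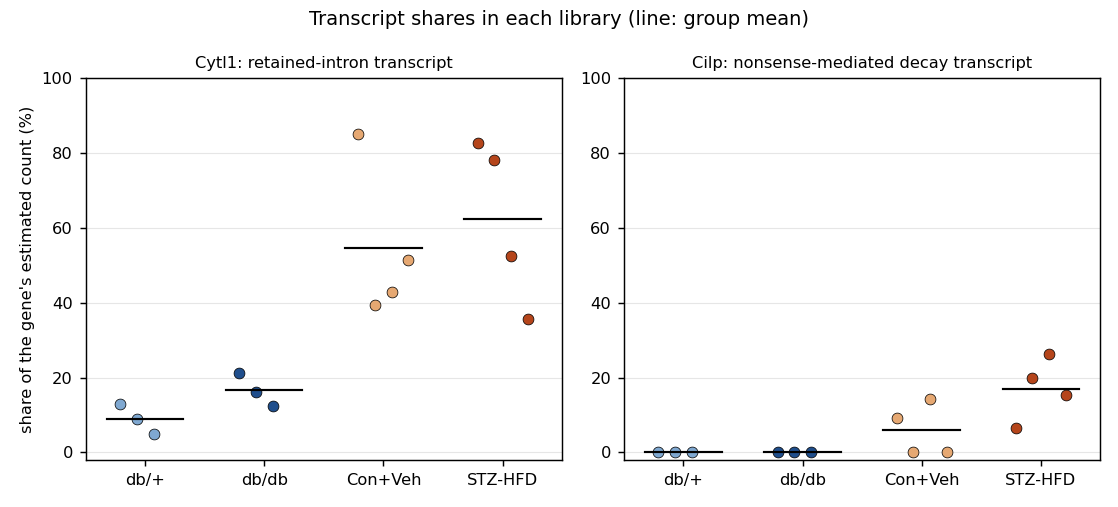
Share of the gene's estimated count (%) taken by the retained-intron transcript of *Cytl1* (left) and the nonsense-mediated decay transcript of *Cilp* (right); each point is 1 library and the line is the group mean. *Cytl1* shares are at most 21.3% in the db libraries and at least 35.8% in the others.

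Of the members, *Chad*, *Matn4* and *Prg4* overlap a gene on the opposite strand, and the strand setting of the counting is not given in the sources used here. *Chad* shares no exon base with *Acsf2*, whose counts ran from 139 to 2600. *Matn4* shares 149 exon bases with *Rbpjl*, which had up to 106 counts in STZ-HFD, so the low counts of *Matn4* are uncertain. *Prg4* shares 204 exon bases with *Tpr*, at 3817 to 12612 counts.

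Companion genes were grouped by role: relatives of the members, matrix partners, receptors, cartilage regulators and proteases that cut these proteins. Their lists were chosen with earlier results of these data known. Counts and p-values below that hold the STZ-HFD contrast are therefore no independent evidence. There were 61 companions, of which 60 were tested. In db/db 2 were called higher (all genes: 1.23%) and 0 lower (0.432%) by limma, with 22 of the 60 at an unadjusted p under 0.05, against 21.1% of all genes. By edgeR 0 were called in either direction, but edgeR called 0 of all genes there. By DESeq2 1 was called higher (all genes: 0.946%). In STZ-HFD 1 was called higher (all genes: 1.3%) and 12 lower (1.31%). DESeq2 called 0 higher and 9 lower (all genes: 0.91%), and edgeR 0 in either direction (lower, all genes: 0.136%), with 23 at an unadjusted p under 0.05 (12.6%). The db/db count by limma was 1 without any 1 of the 6 db libraries, *Bmp2* being lost each time. Over all genes those fits called 12 to 96 higher in db/db, against 208 with all libraries. The STZ-HFD count by limma fell from 13 to 0 when Con+Veh replicate 3, Con+Veh replicate 4 or STZ-HFD replicate 3 was left out. Over all genes these 3 fits called 3, 4 and 3 higher and 14, 14 and 15 lower, against 220 and 221 with all libraries. In the difference of the models 4 were called lower (all genes: 0.816%) and 0 higher, and by DESeq2 3 lower (0.763%).

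Among the relatives (9 of 10 tested) *Thbs1* and *Thbs2*, thrombospondins like Comp, were called lower in STZ-HFD, with log2 differences of -1.95 (SE 0.31, limma adjusted p = 0.00454) and -1.46 (SE 0.31, adjusted p = 0.0193). *Thbs1* was at 186 to 769 CPM in Con+Veh and 107 to 241 in STZ-HFD, so the groups overlapped. In db/db 0 relatives were called by limma, and 3 had an unadjusted p under 0.05 (all genes: 21.1%).

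Of the 14 matrix partners 7 were called lower in STZ-HFD (all genes: 1.31%) and 0 in db/db (0.432%). All 7 are among the matrix genes that the study's discussion lists as decreased in STZ-HFD. The largest falls were in *Col2a1* (log2 difference -1.84, SE 0.37, limma adjusted p = 0.0162), *Hapln1* (-1.68, SE 0.33, adjusted p = 0.0130) and *Dcn*, which codes for the collagen-binding proteoglycan decorin (-1.65, SE 0.26, adjusted p = 0.00458). *Col2a1* was at 157 to 1038 CPM in Con+Veh and 109.7 to 188 in STZ-HFD. It was at 7321 to 12489.9 CPM in db/+ and 2533 to 7804 in db/db, where the log2 difference of -0.98 (SE 0.64) did not pass (adjusted p = 0.391).

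Of the 14 receptors *Cd36*, a scavenger receptor that takes up fatty acids and binds thrombospondin, rose in both models. It was at 11.4, 9.55 and 6.72 CPM in db/+ and 45.2, 42.0 and 35.0 CPM in db/db (log2 difference 2.16, SE 0.31, limma adjusted p = 0.00784), and at 15.6 to 42.6 CPM in Con+Veh and 28.0 to 87.5 CPM in STZ-HFD (1.12, SE 0.26, adjusted p = 0.0244). The db groups did not overlap, and the STZ cohort's groups did. *Sdc4*, a syndecan of the cell surface, fell in STZ-HFD (-1.28, SE 0.32, adjusted p = 0.0345). The integrin genes of the list were not called in either model.

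Of the 15 regulators *Sox9* (-1.53, SE 0.23, limma adjusted p = 0.00419) and *Creb5* (-1.07, SE 0.22, adjusted p = 0.0166), transcription factors of cartilage, fell in STZ-HFD, both without overlap of the groups. With uncalled genes counted, 3 of the 15 were lower without overlap (all genes: 2.77%). For *Creb5* the gap was narrow, with the lowest Con+Veh library at 62.7 CPM and the highest STZ-HFD library at 61.8 CPM. *Sox9* was at 134, 64.2, 103 and 126 CPM in Con+Veh and 31.1, 41.3, 29.2 and 47.5 CPM in STZ-HFD. *Bmp2*, a growth factor of cartilage and bone, rose in db/db, from 4.62 to 9.84 CPM in db/+ to 13.6 to 22.4 CPM (1.19, SE 0.28, adjusted p = 0.0390). Of the 8 proteases 0 were called in either model by limma, with 3 at an unadjusted p under 0.05 in db/db (all genes: 21.1%) and 0 in STZ-HFD (17.9%).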

How the data were processed

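Gene counts and transcript estimates were deposited for the whole series. Per the labels, discs were pulverized in TRIzol and 1 to 50 ng of RNA was amplified with the SeqPlex kit; its effect on the level of single genes was not tested. The authors aligned reads with STAR to GRCm38 with Ensembl annotation and deposited counts per gene from featureCounts; the deposited estimated counts per transcript came from Salmon. Strand setting was not given in the sources used here. The 287 repeated gene lines were dropped.

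Counts were analysed with limma (3.58.1, voomWithQualityWeights, edgeR 4.0.16 TMM factors) on genes above 1 CPM in at least 3 libraries, with 1 mean per group over all 14 libraries, in R 4.3.3. Genes were called at an adjusted p under 0.05 and a log2 fold change of at least 1. CPM were scaled by TMM, and RPKM used exon lengths of the reference annotation on GRCm38. Scores used a prior count of 2. The members' and called companions' log2 differences and the counts of calls were recomputed with DESeq2 (1.42.0) and edgeR's quasi-likelihood test, with other scaling, filters and covariates, and without each library. Rounded transcript estimates were summed for 1 alternative. Levels per library, shares and correlations were computed once. The scripts were tested on simulated data. The members, companion lists and marker lists were chosen with earlier results of these data known. Named were every member, at most 3 called companions per list, model and direction with the largest change, the chondrocyte markers, and the 5 genes most like *Chad* and *Cytl1*. Replicate numbers did not pair the libraries.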

Additional observations from a re-analysis of the deposited data

Results flagged for a closer look

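Dixon's test at the 95% level was run on 20 sets of 4 libraries (10 members in Con+Veh and STZ-HFD). Chance flags about 1 of 20 sets if values are normally distributed, which need not hold for CPM without a log. In 4 sets a value stood apart from the rest of its group. These values come from 2 libraries, and the 3 from STZ-HFD replicate 2 are not independent of one another. In STZ-HFD replicate 2, *Cilp* was at 71.1 CPM, *Cilp2* at 16.3 CPM and *Prg4* at 433 CPM, above the other STZ-HFD libraries. In STZ-HFD replicate 1, *Matn1* was at 0.99 CPM where the other STZ-HFD libraries had 0. By count it ranked only 16551 among protein-coding genes there, inside the range of 16401 to 17202 in the others. Low counts were thus common to many genes of that library. With the others at 0, any level above 0 would have been flagged. The groups of 3 were not tested this way.

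For 4 companion genes the response differed between the models by limma's test of the difference, STZ-HFD change minus db/db change. These genes come from lists chosen with earlier results of these data known. *Dcn* had a difference of -2.53 (adjusted p = 0.0176), with a log2 change of 0.88 in db/db and -1.65 in STZ-HFD. *Igf1* had a difference of -1.64 (adjusted p = 0.0266), from 0.91 and -0.74. *Bmp2* had a difference of -1.96 (adjusted p = 0.0311), from 1.19 and -0.78. *Cd47* had a difference of -1.42 (adjusted p = 0.0336), from 0.66 and -0.76. Over the alternatives the adjusted p ran from 0.00176 to 0.167 for *Dcn*, 0.00597 to 0.163 for *Igf1*, 0.0232 to 0.451 for *Bmp2* and 0.0180 to 0.842 for *Cd47*. Without Con+Veh replicate 3 none of the 4 was called by limma, and *Dcn* was then at -2.25 (adjusted p = 0.117). Over all genes 1 was called higher and 3 lower in that fit, against 161 and 138 with all libraries. By edgeR 0 companions were called in this difference, with 12 at an unadjusted p under 0.05 (all genes: 11.8%), and by DESeq2 3. Across all genes 1.77% were called.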

How the results depend on the processing

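The members' direction in STZ-HFD was kept under every alternative run, except *Matn3* at 0.20 with the chondrocyte score as covariate, where the members' median was -1.35. In db/db, values of uncalled members turned sign: *Cilp* to 0.22 and *Cytl1* to 0.19 with the muscle score as covariate, *Matn4* to -0.017 by edgeR, -0.87 with transcript totals and -0.96 with the muscle score, and the difference of the models for *Cd47* to 0.54 with transcript totals, for *Matn3* to 0.80 with the muscle score and 0.25 with the chondrocyte score, and for *Matn4* to 0.82 with the muscle score. For *Chad* that difference ran from -4.10 to -2.41 over the alternatives and for *Prg4* from -3.11 to -2.32. Leaving out 1 library at a time gave -0.47 to 0.14 for *Cilp*, -0.49 to 0.55 for *Matn4* and -0.0091 to 0.44 for *Prg4* in db/db. The members called in STZ-HFD went from 7 to 4 by edgeR, 3 without quality weights, 1 with no filter, 4 with transcript totals and 1 with the adipocyte or chondrocyte score as covariate. Leaving out 1 library gave 4 to 7. Over all genes, calls on the lower side went from 221 to 23 by edgeR and 16 without quality weights. They were 35 of 46963 with no filter, 26 of 14693 with transcript totals, 2 with the adipocyte score and 1 with the chondrocyte score. Leaving out 1 library gave 14 to 368 over all genes.

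Companions called in db/db (2) became 0 by edgeR, without quality weights, with transcript totals and with the adipocyte or chondrocyte score, and 1 by DESeq2 and with each model fitted alone; leaving out 1 library gave 1 to 2. Companions called in STZ-HFD (13) became 0 by edgeR and with the adipocyte or chondrocyte score, 1 without quality weights, without a filter and with transcript totals, and 4 with the muscle score; leaving out 1 library gave 0 to 17. Those called in the difference of the models (4) became 0 by edgeR, without quality weights, with transcript totals and with the chondrocyte score, 2 with the GC trend removed and with the adipocyte score, and 1 with the muscle score; leaving out 1 library gave 0 to 5. Over all genes, the db/db calls were 0 by edgeR and with the adipocyte or chondrocyte score. They were 7 higher and 2 lower without quality weights, and 115 and 29 with transcript totals. In STZ-HFD they were 6 and 23 by edgeR, 1 and 2 with the adipocyte score and 2 and 1 with the chondrocyte score. In the difference of the models they were 0 and 5 by edgeR and 0 and 3 without quality weights. With transcript totals they were 32 and 30, and with the chondrocyte score 1 and 6. Beyond the smaller sets of samples, the causes were not tested.

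Libraries with the same replicate number did not deviate together (r from -0.25 to 0.17 in the db cohort, -0.23 to -0.05 in the other), so they share only a number. With the replicate block, 1 member was called in db/db (*Cilp2*) and 2 in STZ-HFD, companions called were 16 in db/db, 0 in STZ-HFD and 0 in the difference of the models, and *Matn4* in db/db was at -0.53; all genes called went from 208 higher and 73 lower to 796 and 688 in db/db, and from 220 and 221 to 2 and 4 in STZ-HFD. Removing *Chad* before normalization, and leaving out Con+Veh replicate 1 with STZ-HFD replicate 1, were chosen after seeing the data. Low counts limit the precision for *Matn1*, *Matn3* and *Matn4* in the STZ cohort, where *Matn1* had at most 24.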
